A study of Homo sapiens with 72 samples.

Results

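The mRNAs of 3 C/EBP transcription factors, CEBPB, CEBPD and CEBPG, were followed in A375 cells, an established human melanoma line. They were chosen by gene symbol and are 3 of the 44659 gene names in the count table. The 72 libraries were QuantSeq libraries, which read the 3′ end of polyadenylated RNA, made from cytoplasmic RNA, with 3 replicates in each of 24 groups. Cells had been given siRNA against CTU2 (siCTU2) or the control siRNA siGL2 for 42 h, or were grown over 18 h in glutamine-free (mQ) or control (pQ) medium. CTU2 is a subunit of the enzyme that thiolates the wobble uridine of the tRNAs for lysine, glutamate and glutamine. Every condition was sampled at 0, 3 and 5 h in both of 2 arms. The T arm received triptolide at 25 µM, which blocks transcription, and the TCHX arm received triptolide with cycloheximide at 100 µg/ml, which blocks translation elongation. Since new transcripts are not made under triptolide, the level left at 3 and 5 h measures how fast an mRNA decays, and the TCHX arm measures the same with ribosomes arrested.

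C/EBP proteins are basic leucine zipper factors that bind DNA as dimers, with each other or with related zipper proteins of the ATF and AP-1 families. C/EBP beta (CEBPB) and C/EBP delta (CEBPD) are inducible activators of the inflammatory and acute-phase genes and act early in fat cell differentiation. C/EBP gamma (CEBPG) lacks an activation domain of its own and works mainly as a partner, among others of ATF4, the activator of the amino acid response. The mRNAs of immediate and stress-responsive regulators of this kind are typically short-lived, so that their level follows transcription closely.

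Library totals ran from 5987692 to 15534331 counts, and all 3 mRNAs passed the filter on low counts in every comparison. The melanocyte lineage genes SOX10, MITF, S100B and DCT had a mean of at least 62.6 CPM, the count scaled to a common library total, in the T arm at 0 h, while the pigment genes MLANA and TYR were near 0, at 0.287 and 0.445 CPM. The summed markers of keratinocytes, fibroblasts, leukocytes and endothelium reached at most 4.39 CPM per library. CTU2 was at 0.133 to 2.95 CPM in the siCTU2 libraries and at 17.5 to 35 CPM in the siGL2 libraries, apart from 1 siCTU2 library, labelled TCHX 5 h replicate 3, where it reached 10.4 CPM. In that one, and in the pair labelled mQ T 5 h replicate 3 and pQ TCHX 0 h replicate 3, 19896 to 20364 genes were detected. The remaining 69 detected 15507 to 17495, and the changes after 0 h, the cycloheximide effects and the TCHX-arm 0 h differences of these conditions are also given without those 3 where a value moved by over 1.5 times or a call changed. Nothing in the labels says that replicates came from separate cultures, so the p-values measure the spread between these libraries.

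The 3 genes differ in the message they make (GENCODE v44, GRCh38). CEBPB lies on chromosome 20 at 50190830-50192668 on the plus strand, and both it and CEBPD have 1 exon and no intron. CEBPG lies on chromosome 19 at 33373685-33382686 on the plus strand and has 2 exons. The coding sequences of CEBPB and CEBPD are among the most GC-rich, at 73.5% and 74.9% GC, while CEBPG is at 49.2%, against a median of 52.8% over 19702 genes. Their glutamate codons differ likewise: GAA, which ends in A, makes up 1 of 21 in CEBPB, 1 of 18 in CEBPD and 5 of 9 in CEBPG, where the median gene has 40% GAA. For lysine, AAA makes up 1 of 23, 0 of 11 and 9 of 15 codons, where the median gene also has 40%. The 3′ untranslated regions are 597, 398 and 2994 bases long and hold the pentamer ATTTA, the core of AU-rich elements, 1, 0 and 9 times. Over 19173 genes the median region is 1088 bases long, and 68.3% hold ATTTA. A longer form of 9 bases, TTATTTA followed by 2 bases that are A or T, is in 19.4% of the regions. It occurs 1, 0 and 0 times in CEBPB, CEBPD and CEBPG. The lines that follow, taken from GENCODE v44, show the pentamer in capitals in the only CEBPB copy and in the CEBPG copy nearest the stop codon.
CEBPB, 226 bases into the 3′ untranslated region: gcccgtggtgttATTTAaagaagaaacgt
CEBPG, 654 bases into the 3′ untranslated region: aatacaaataacATTTAggaagcaaatag

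The promoter search left out CEBPD. Promoter windows of 250 bases before to 50 bases after a RefSeq start (GRCh38.p14) were taken for 2 starts of CEBPB and 2 of CEBPG. They were searched on both strands for TGATGNAA (the core of the composite C/EBP-ATF element), TGACGTCA (the cAMP response element), TGACGNAA, TTGCNNAA (a C/EBP palindrome core), TTCNNNGAA (the STAT element) and TATAAA (the TATA box). One window of CEBPG held TGATGCAA, which starts 42 bases before the RefSeq start of that window and occurs as TGATGNAA in 3.62% of 35116 promoter windows. That window begins at 33373863, inside the gene as annotated by GENCODE, which starts at 33373685. The other CEBPG window, which begins at 33373459, held no match. One window of CEBPB held TATAAA, 29 bases before the start, a motif in 11.5% of the windows. The other 4 motifs, present in 1.66% to 10.5% of windows, were not in these letters. Both windows are shown, with the match in capitals, because each held a match. The letters of CEBPD were not searched and cannot be set beside them. A match is a description of the letters and not evidence of binding.
CEBPB, chr20:50190580-50190879, plus strand: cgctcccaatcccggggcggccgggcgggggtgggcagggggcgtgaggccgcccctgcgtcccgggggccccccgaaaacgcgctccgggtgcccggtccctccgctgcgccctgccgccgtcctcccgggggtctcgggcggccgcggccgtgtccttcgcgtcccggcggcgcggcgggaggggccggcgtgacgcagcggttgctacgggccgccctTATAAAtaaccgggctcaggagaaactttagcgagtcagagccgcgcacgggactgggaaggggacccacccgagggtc
CEBPG, chr19:33373863-33374162, plus strand: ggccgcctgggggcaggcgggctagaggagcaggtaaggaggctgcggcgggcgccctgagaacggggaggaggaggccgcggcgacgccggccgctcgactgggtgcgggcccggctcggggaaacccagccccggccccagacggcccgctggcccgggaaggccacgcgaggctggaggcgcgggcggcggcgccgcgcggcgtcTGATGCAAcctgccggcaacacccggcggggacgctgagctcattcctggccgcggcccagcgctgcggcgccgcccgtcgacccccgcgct

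The first question was whether CTU2 loss altered the level of these mRNAs before decay was measured. At 0 h, 1 of the 3, CEBPD, differed between siCTU2 and siGL2, and it was higher in siCTU2. CEBPD stood at 36.5, 27.8 and 61 CPM in the siCTU2 T-arm libraries (replicates 1, 2 and 3) and at 13.9, 17.1 and 18.4 CPM in siGL2. The groups did not overlap, and the widest spread was in siCTU2. The rise was 2.55-fold, a log2 difference of 1.35 (SE 0.22, adjusted p = 9.75e-05) by edgeR's quasi-likelihood test with Benjamini-Hochberg adjustment over 12292 genes, of which 17.8% were called higher. In a bulk sample, a change in the share of cells that make an mRNA and a change in its amount per cell cannot be told apart. In the TCHX arm at 0 h, which is a second set of libraries, CEBPD was at 22.3, 26.7 and 40.4 CPM in siCTU2 and 15, 13.3 and 17.9 CPM in siGL2, again without overlap, with a log2 difference of 0.95 (adjusted p = 0.000557).

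CEBPB and CEBPG were not called. CEBPB was at 48, 50.2 and 49.5 CPM in siCTU2 and 43.9, 49.2 and 46.8 CPM in siGL2, overlapping ranges with a log2 difference of 0.08 (SE 0.102, adjusted p = 0.606). CEBPG was at 20.9, 18.6 and 15.3 CPM and 18, 17.5 and 16.5 CPM, with 0.07 (SE 0.157, adjusted p = 0.781).

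Removing glutamine moved all 3 mRNAs, and not in the same direction: CEBPB and CEBPG rose and CEBPD fell. CEBPB was at 117, 81.7 and 131 CPM in mQ and 54.4, 52.6 and 61.4 CPM in pQ. Every mQ value lay above every pQ value, and replicate 2 was the lowest of the mQ libraries. The rise was 2.03-fold, 1.02 (SE 0.158, adjusted p = 0.00117) on the log2 scale. CEBPG was at 46.3, 28 and 51.8 CPM in mQ and 23.1, 20.7 and 17.8 CPM in pQ. These groups also stood apart, with replicate 2 again lowest in mQ, and the rise was 2.12-fold, 1.09 (SE 0.21, adjusted p = 0.0038). CEBPD was at 12.1, 12.6 and 13 CPM in mQ and 20.1, 22.3 and 26.6 CPM in pQ. All mQ libraries lay below all pQ libraries, 1.76-fold lower, −0.82 (SE 0.171, adjusted p = 0.00556). Of 12374 genes tested, 12.5% were called higher and 12.4% lower.

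In the TCHX arm at 0 h the rises recurred. CEBPB was at 148, 135 and 152 CPM in mQ and 44, 60.6 and 35.2 CPM in pQ, a log2 difference of 1.65 (adjusted p = 0.000578). CEBPG was at 60.4, 51.4 and 68.4 CPM and 15, 19.5 and 16.7 CPM, 1.83 (adjusted p = 0.000291). CEBPD was at 18.1, 13.5 and 12.1 CPM and 20.5, 25.9 and 11.4 CPM, overlapping groups, and its difference of −0.39 (adjusted p = 0.44) was not called. The low pQ value is the library labelled replicate 3, 1 of the 3 with counts for more genes. Without it, an alternative chosen after the data were seen, CEBPD differed by −0.66 (adjusted p = 0.0162), CEBPB by 1.49 (adjusted p = 4.6e-09) and CEBPG by 1.82 (adjusted p = 1.22e-08).

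**Figure D1:**
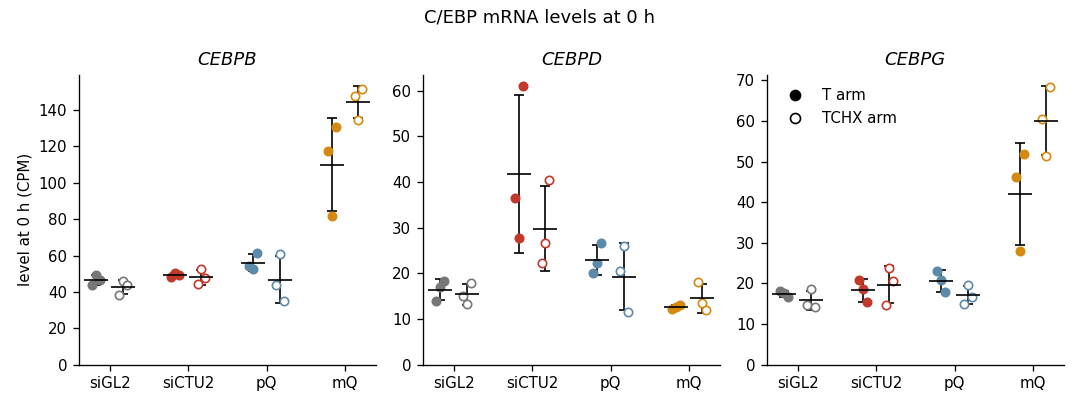
Level at 0 h in CPM (y axis, from 0) of CEBPB, CEBPD and CEBPG in the 4 conditions (x axis). Points are libraries, filled for the T arm and open for the TCHX arm, and the bar with whiskers is the mean ± SD of 3 libraries. CEBPB and CEBPG stand highest in mQ in both arms, and CEBPD stands highest in siCTU2.

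The other C/EBP genes were scarce in these cells. CEBPA had between 0 and 44 counts per library and CEBPE no more than 3, in 2 of the 72 libraries. The partners were read from a list of 12 family members and dimer partners, of which 10 could be tested for mQ against pQ. There, 5 were higher and 0 lower, beside 12.5% and 12.4% of all genes, with a median log2 difference of 0.88 beside 0.01 over all genes. ATF4, with which CEBPG pairs, went from 228 ± 16.4 CPM in pQ to 1345 ± 181 CPM in mQ (SD, n = 3), 2.61 (SE 0.119, adjusted p = 2.68e-07). DDIT3 (CHOP), a C/EBP relative that dimerises with C/EBP proteins and keeps them off their usual sites, went from 26.2 ± 1.07 CPM to 225 ± 46.5 CPM, 3.16 (SE 0.157, adjusted p = 2.83e-07). ATF3, a stress-induced partner, rose by 3.00 (SE 0.215, adjusted p = 4.51e-06), JDP2 by 4.18 (SE 0.3, adjusted p = 4.51e-06) and ATF5 by 0.47 (SE 0.121, adjusted p = 0.0158). The log2 differences of CEBPB and CEBPG had the sign of these 5 partners and that of CEBPD the opposite sign.

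In siCTU2 against siGL2, 9 members of that list were tested, 4 were higher and 2 lower, beside 17.8% and 18.2% of all genes, with a median of 0.02 beside 0.00 over all genes. JUN, the AP-1 subunit, went from 25.1 ± 6.75 CPM to 77.1 ± 12.2 CPM, 1.61 (SE 0.156, adjusted p = 2.51e-07). ATF3 rose by 1.09 (SE 0.229, adjusted p = 0.00106), DDIT3 by 0.46 (SE 0.155, adjusted p = 0.027) and ATF5 by 0.44 (SE 0.126, adjusted p = 0.01). BATF3 fell, −0.58 (SE 0.191, adjusted p = 0.0253). JDP2 was called lower on 1, 1 and 0 counts in siCTU2 against 12, 15 and 14 in siGL2, too few for a fold change to be read. ATF4 stood at 241 ± 12.6 CPM in siCTU2 and 237 ± 8.9 CPM in siGL2, 0.02 (SE 0.0715, adjusted p = 0.825).

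**Figure D2:**
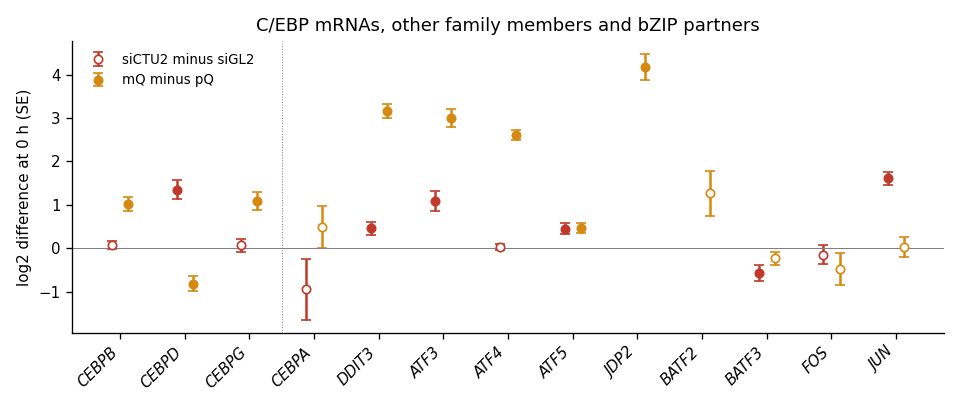
Log2 difference at 0 h in the T arm (y axis, whiskers 1 SE) of the 3 C/EBP mRNAs, left of the dotted line, and of the tested family members and partners (x axis), for siCTU2 minus siGL2 and mQ minus pQ. Filled points have an adjusted p under 0.05. JDP2 is not drawn for siCTU2, where it had 2 counts in all. ATF4, DDIT3, ATF3 and JDP2 stand at 2.61 to 4.18 in mQ, and CEBPD, JUN and ATF3 at 1.09 to 1.61 in siCTU2.

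Upstream genes, those of the IL-6 family, IL-1, JAK-STAT and CREB signals that induce CEBPB and CEBPD, made a list of 18. For siCTU2, 13 were tested, 3 were higher and 2 lower, beside 17.8% and 18.2% of all genes, with a median of 0.14 beside 0.00 over all genes. LIF, a cytokine of the IL-6 family, rose by 1.35 (SE 0.202, adjusted p = 4.07e-05) and IL6R, the IL-6 receptor, by 0.96 (SE 0.11, adjusted p = 1.81e-06), while the kinase JAK1 fell, −1.54 (SE 0.139, adjusted p = 1.03e-07). For mQ, 12 were tested, 0 were higher and 4 lower, beside 12.5% and 12.4% of all genes, with a median of −0.29 beside 0.01. SOCS3, the STAT3 target that feeds back on the IL-6 receptor, fell, −1.89 (SE 0.492, adjusted p = 0.0162), as did the receptors LIFR, −0.77 (SE 0.182, adjusted p = 0.0103), and IL6R, −0.62 (SE 0.112, adjusted p = 0.00274).

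Among 18 inflammatory and acute-phase genes that C/EBP factors are known to bind, few were expressed. The shares of all genes called higher and lower were again 17.8% and 18.2% for siCTU2 and 12.5% and 12.4% for mQ. Of 4 tested in siCTU2, 3 were higher and 0 lower: the chemokines CXCL1, 1.38 (SE 0.271, adjusted p = 0.000589), and CXCL8, 1.18 (SE 0.306, adjusted p = 0.00564), and the mitochondrial superoxide dismutase SOD2, 0.37 (SE 0.136, adjusted p = 0.0408). Of 5 tested in mQ, PTGS2 (cyclooxygenase-2) was higher, 1.75 (SE 0.529, adjusted p = 0.0308), and SOD2 lower, −0.55 (SE 0.184, adjusted p = 0.0469). Of 6 antagonists and adaptors, all tested, 3 were higher in mQ and 0 lower. They were DDIT3, TRIB3, 3.20 (SE 0.157, adjusted p = 2.83e-07), and TRIB1, 0.76 (SE 0.146, adjusted p = 0.00353), the latter a pseudokinase that brings C/EBP proteins to the ubiquitin ligase COP1. In siCTU2, 1 was higher and 3 lower, led by ID2, −1.45 (SE 0.186, adjusted p = 7.1e-06). The lists were drawn up with earlier results of these data known, and the counts describe them without a test of the list.

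Decay was read on a scale set by genes whose share of the library rose at least 1.1-fold at 3 h or 5 h. They had to do so in every condition, arm and replicate of the experiment, and 8 (siRNA) and 3 (medium) did so at both times. Each library is given as a percent of the 0 h library of its arm and replicate. All 3 mRNAs fell in the T arm. The fitted fall of CEBPG was the smallest of the 3 at 3 h, though in pQ its order with CEBPD rested on replicate 3. In that arm at 3 h, 19.3% (siCTU2), 15.1% (siGL2), 24.4% (mQ) and 7.43% (pQ) of all genes had a lower log2 change than CEBPG. For CEBPB and CEBPD it was at most 6.73%. At 3 h, 11 of the 12 falls (3 mRNAs in 4 conditions) were called, the exception being CEBPG in siGL2, and at 5 h all 12 were called. Over all genes, falls were called for 36% (siCTU2), 28.6% (siGL2), 55.4% (mQ) and 55.2% (pQ) at 3 h, and for 63.4%, 47.4%, 43.8% and 51.8% at 5 h. The falls are set beside the median of genes with a mean of at least 10 CPM. In the T arm of siCTU2, siGL2, mQ and pQ it kept 69.6%, 73.2%, 62% and 63.3% at 3 h. At 5 h it kept 55.4%, 62.5%, 65.5% and 61.9%. In replicate 3 at 5 h it was 37.3% (siCTU2 T), 49.8% (siGL2 T), 50.5% (pQ T), 47.3% (siGL2 TCHX) and 52.9% (mQ TCHX), and 71.4% to 75.2% in the other libraries. Low replicate 3 percents of the 3 mRNAs at 5 h are to be read beside the median gene of the same library. Without replicate 1, 2 or 3 the 3 h falls were called in 7, 8 and 12 of 12 and the 5 h falls in 11, 9 and 12. Calls over all genes, in either direction, moved as well. They went from 5069 to 1182 for 3 h in siCTU2 without replicate 1, and from 6087 to 40 for 5 h in mQ without replicate 2. CEBPB at 3 h lost its call in siCTU2 without replicate 1, −1.68 (adjusted p = 0.0862), and in siGL2 without replicate 1 or 2, −2.24 (adjusted p = 0.0929) and −1.99 (adjusted p = 0.0945). TMM scaling sets the typical gene near no change and moves the median of all genes at 3 h up by 0.48 to 0.73. With it, all 12 changes stayed negative at both times, but 9 of 12 were called at 3 h. Besides siGL2, CEBPG was not called in siCTU2, −0.52 (adjusted p = 0.255), or in mQ, −0.41 (adjusted p = 0.425). Over all genes the 3 h calls went from 7599 to 981 in mQ, 7510 to 1224 in pQ and 3904 to 1259 in siGL2.

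CEBPB lost its message fast in every condition. In siGL2 CEBPB kept 29, 21.2 and 21.2% at 3 h and 6.3, 7.94 and 1.1% at 5 h in the T arm (replicates 1, 2 and 3). The corresponding TCHX libraries kept 66, 63.7 and 62.8% and 37.1, 35.4 and 8.52%. The arms did not overlap at either time. The T-arm log2 change was −2.08 (SE 0.472, adjusted p = 0.0035) at 3 h and −4.30 (SE 0.536, adjusted p = 6.62e-06) at 5 h. In siCTU2 CEBPB kept 20.1, 33.9 and 28.5% at 3 h and 7.1, 13.5 and 1.79% at 5 h in the T arm (replicates 1, 2 and 3). The corresponding TCHX libraries kept 76.5, 71.7 and 86.5% and 47.3, 39.5 and 49.8%. The arms again stood apart. The T-arm log2 change was −1.86 (SE 0.36, adjusted p = 0.000888) at 3 h and −3.72 (SE 0.397, adjusted p = 7.1e-07) at 5 h. In pQ CEBPB kept 19, 15.6 and 9.31% at 3 h and 2, 10.6 and 0.594% at 5 h in the T arm (replicates 1, 2 and 3). The corresponding TCHX libraries kept 63.6, 47.8 and 92% and 43.7, 28.1 and 42.3%. No TCHX value came down to the T-arm range, although the 3 h TCHX values were spread widely. The T-arm log2 change was −2.80 (SE 0.497, adjusted p = 0.000306) at 3 h and −4.52 (SE 0.553, adjusted p = 3.85e-06) at 5 h. In mQ CEBPB kept 9.78, 16 and 11.6% at 3 h and 3.82, 8.09 and 17.2% at 5 h in the T arm (replicates 1, 2 and 3). The corresponding TCHX libraries kept 63.8, 73.3 and 73.5% and 34.6, 37 and 18.5%. The arms stood apart at both times, and the nearest approach was replicate 3 at 5 h, whose T-arm library is 1 of the 3 with counts for more genes. The T-arm log2 change was −3.05 (SE 0.452, adjusted p = 0.000327) at 3 h and −3.21 (SE 0.454, adjusted p = 0.000178) at 5 h. Without those libraries the 5 h change was −4.34 (adjusted p = 9.6e-09).

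CEBPD fell in a like way, on fewer counts. In siGL2 CEBPD kept 20.7, 17.5 and 16.6% at 3 h and 12.7, 4.41 and 3.42% at 5 h in the T arm (replicates 1, 2 and 3). The TCHX values were 53.5, 82.8 and 50.3% and 35.9, 46.6 and 17.6%. The arms did not overlap. Its log2 change under triptolide alone was −2.46 (SE 0.313, adjusted p = 2.76e-05) at 3 h and −4.00 (SE 0.346, adjusted p = 1.37e-07) at 5 h. In siCTU2 CEBPD kept 30.1, 41.2 and 19.4% at 3 h and 12.8, 16.1 and 5.47% at 5 h in the T arm (replicates 1, 2 and 3). The TCHX values were 117, 84.4 and 100.4% and 81, 54 and 31.5%. At 3 h the TCHX libraries were near their 0 h level, and the arms stood apart at both times. Its log2 change under triptolide alone was −1.88 (SE 0.29, adjusted p = 0.000138) at 3 h and −3.33 (SE 0.313, adjusted p = 1.94e-07) at 5 h. In pQ CEBPD kept 26.3, 30.1 and 9.24% at 3 h and 8.92, 9.06 and 1.37% at 5 h in the T arm (replicates 1, 2 and 3). The TCHX values were 56.7, 60.9 and 122% and 39.7, 48.6 and 98.5%. The high TCHX values of replicate 3 are percents of the 0 h library with counts for more genes, in which CEBPD was low. Its log2 change under triptolide alone was −2.26 (SE 0.436, adjusted p = 0.0006) at 3 h and −3.99 (SE 0.489, adjusted p = 3.91e-06) at 5 h. In mQ CEBPD kept 17.5, 17.7 and 13.7% at 3 h and 10.4, 14.1 and 44.6% at 5 h in the T arm (replicates 1, 2 and 3). The TCHX values were 66.4, 70.4 and 63.9% and 43.4, 39.6 and 20.7%. At 5 h the arms overlapped, since replicate 3 of the T arm was high. Its log2 change under triptolide alone was −2.63 (SE 0.489, adjusted p = 0.000835) at 3 h and −1.99 (SE 0.466, adjusted p = 0.00351) at 5 h. Without the 3 libraries that stand apart the 5 h change was −3.08 (adjusted p = 3.86e-06).

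In the T arm, CEBPG kept a larger share at 3 h than CEBPB and CEBPD in every condition by the group means. In pQ its lead over CEBPD came from replicate 3. Over replicates 1 and 2 the pQ means were 26.6% for CEBPG and 28.2% for CEBPD. The order of the mRNAs was not tested. In siGL2 CEBPG kept 54.8, 40.5 and 39.2% at 3 h and 18.6, 21.5 and 4.15% at 5 h in the T arm (replicates 1, 2 and 3). With cycloheximide the libraries kept 54.2, 81.5 and 76.3% and 51.1, 49.6 and 15.5%. The arms overlapped at both times. For the T arm the log2 change was −1.15 (SE 0.475, adjusted p = 0.0794) at 3 h and −2.75 (SE 0.514, adjusted p = 0.000342) at 5 h. In siCTU2 CEBPG kept 33.5, 46.5 and 68.3% at 3 h and 21.6, 24 and 11.6% at 5 h in the T arm (replicates 1, 2 and 3). With cycloheximide the libraries kept 117, 71.4 and 71.1% and 100.4, 26.2 and 57.8%. The replicates were spread widely in the TCHX arm, and the arms did not overlap at either time. For the T arm the log2 change was −1.07 (SE 0.319, adjusted p = 0.0155) at 3 h and −2.35 (SE 0.339, adjusted p = 1.84e-05) at 5 h. In pQ CEBPG kept 23.2, 30.05 and 24.6% at 3 h and 17.2, 5.04 and 6.16% at 5 h in the T arm (replicates 1, 2 and 3). With cycloheximide the libraries kept 79.5, 51.1 and 69.4% and 68.1, 52.8 and 22.4%. The arms stood apart. For the T arm the log2 change was −1.95 (SE 0.413, adjusted p = 0.00122) at 3 h and −3.31 (SE 0.448, adjusted p = 1.18e-05) at 5 h. In mQ CEBPG kept 42.8, 59 and 39.5% at 3 h and 17.7, 30.8 and 26.3% at 5 h in the T arm (replicates 1, 2 and 3). With cycloheximide the libraries kept 71.1, 85.7 and 65.9% and 60.1, 52.2 and 14.7%. The arms stood apart at 3 h and overlapped at 5 h. For the T arm the log2 change was −1.15 (SE 0.348, adjusted p = 0.011) at 3 h and −2.02 (SE 0.359, adjusted p = 0.000732) at 5 h. Without the 3 libraries that stand apart the 5 h change was −2.37 (adjusted p = 5.21e-05).

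**Figure D3:**
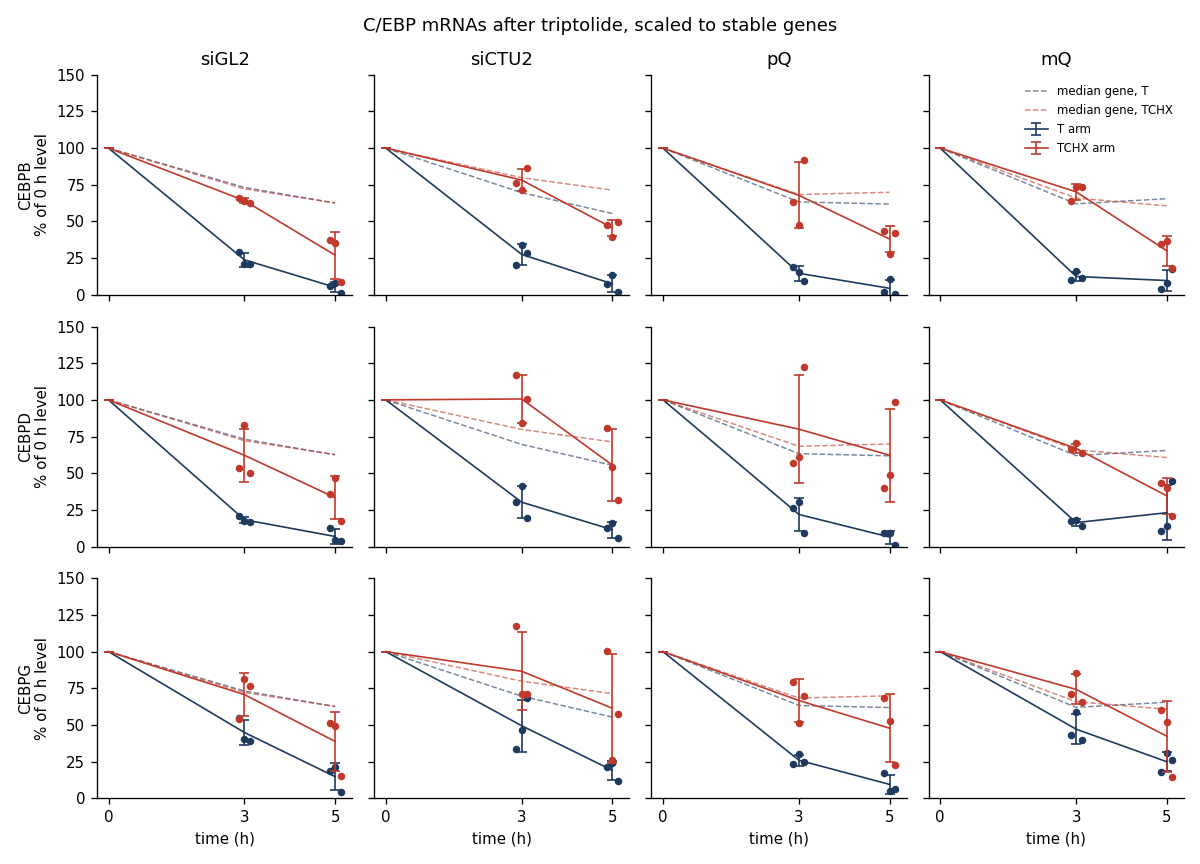
Percent of the 0 h level (y axis, scaled to stable genes) at 0, 3 and 5 h (x axis) for each mRNA (rows) and condition (columns). Solid lines are means ± SD of 3 replicates with each library as a point, blue for the T arm and red for the TCHX arm, and dashed lines are the median gene. The blue solid lines run below the dashed blue ones at 3 and 5 h. They come nearer for CEBPG at 3 h, as in mQ with a mean of 47.1% beside 62%. The red solid lines run above the blue ones at both times.

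On the library scale, the highest CEBPB group was mQ TCHX 3 h at 154 ± 17.8 CPM (SD, n = 3) and the lowest siGL2 T 5 h at 3.16 ± 2.16 CPM. CEBPG had the same highest group, at 66.9 ± 3.6 CPM, and its lowest was pQ T 5 h at 2.7 ± 1.95 CPM. CEBPD was highest in siCTU2 T 0 h at 41.8 ± 17.3 CPM and lowest in siGL2 T 5 h at 1.42 ± 0.79 CPM. When the 24 groups are ordered by mean, 16 of 23 neighbours overlapped in range for CEBPB, 20 for CEBPD and 21 for CEBPG, so most adjacent groups cannot be ranked. The order across times depends on the scale. In the T arm of mQ at 3 h CEBPG was at 28.5, 24.8 and 34.3 CPM, above 23.1, 20.7 and 17.8 CPM in pQ at 0 h. On the scale used for decay its mean was 239 there, below 268 in pQ at 0 h. On that scale mQ TCHX 3 h also lay below mQ TCHX 0 h, at 1313 against 1867 for CEBPB and 570 against 774 for CEBPG. CEBPB in mQ at 3 h of triptolide was at 16.5, 19.6 and 25.4 CPM, below its pQ level at 0 h.

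The group means in CPM (± SD, n = 3) fill in the later times. CEBPB in siGL2 was at 14.5 ± 1.84 and 3.16 ± 2.16 CPM in the T arm at 3 and 5 h, and at 42.7 ± 3.77, 37.1 ± 0.496 and 15.8 ± 8.05 CPM in the TCHX arm at 0, 3 and 5 h. CEBPB in siCTU2 was at 18.4 ± 3.92 and 5.16 ± 3.47 CPM in the T arm at 3 and 5 h, and at 48.1 ± 4.15, 46.9 ± 6.3 and 29.2 ± 2.08 CPM in the TCHX arm at 0, 3 and 5 h. In both siRNA conditions the 5 h T-arm mean was the lowest of the 5. CEBPB in pQ was at 12 ± 2.8 and 3.29 ± 4.06 CPM in the T arm at 3 and 5 h, and at 46.6 ± 12.9, 43.2 ± 2.49 and 23.3 ± 3.74 CPM in the TCHX arm at 0, 3 and 5 h. CEBPB in mQ was at 20.5 ± 4.51 and 15.6 ± 13.6 CPM in the T arm at 3 and 5 h, and at 145 ± 8.82, 154 ± 17.8 and 65.4 ± 17.9 CPM in the TCHX arm at 0, 3 and 5 h. The mQ T-arm mean at 5 h includes the replicate 3 library that stands apart: the libraries were at 6.03, 9.69 and 31.2 CPM (replicates 1, 2 and 3), and replicate 3 was the highest. JUN was at 1.18, 0.225 and 25.9 CPM in the same 3 libraries, and at 15.5, 22.5 and 34.4 CPM in the mQ T-arm libraries at 0 h. Its replicate 3 level at 5 h thus lay in the 0 h range. What this means for the percents of that library was not tested.

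The CPM means of CEBPD (± SD, n = 3) were higher in siCTU2 than in siGL2 at each time in both arms. CEBPD in siGL2 was at 3.91 ± 0.159 and 1.42 ± 0.79 CPM in the T arm at 3 and 5 h, and at 15.4 ± 2.36, 12.6 ± 1.19 and 6.98 ± 1.32 CPM in the TCHX arm at 0, 3 and 5 h. CEBPD in siCTU2 was at 15.6 ± 1.21 and 6.39 ± 0.598 CPM in the T arm at 3 and 5 h, and at 29.8 ± 9.41, 37.4 ± 13.2 and 20.2 ± 3.45 CPM in the TCHX arm at 0, 3 and 5 h. In both siRNA conditions the TCHX means at 3 h lay above those of the T arm. CEBPD in pQ was at 7.1 ± 2.89 and 1.89 ± 1.2 CPM in the T arm at 3 and 5 h, and at 19.3 ± 7.31, 20.1 ± 3.61 and 14.6 ± 3.55 CPM in the TCHX arm at 0, 3 and 5 h. CEBPD in mQ was at 3.13 ± 0.196 and 4.11 ± 3.43 CPM in the T arm at 3 and 5 h, and at 14.5 ± 3.16, 14.7 ± 2.81 and 7.84 ± 3.53 CPM in the TCHX arm at 0, 3 and 5 h. The mQ T-arm mean at 5 h includes the replicate 3 library that stands apart: the libraries were at 1.7, 2.59 and 8.04 CPM (replicates 1, 2 and 3), and replicate 3 was the highest.

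The CPM means of CEBPG (± SD, n = 3) were highest in mQ at each time and arm. CEBPG in siGL2 was at 10.3 ± 2.28 and 3.44 ± 2.08 CPM in the T arm at 3 and 5 h, and at 15.8 ± 2.39, 15.1 ± 3.85 and 8.7 ± 4.29 CPM in the TCHX arm at 0, 3 and 5 h. CEBPG in siCTU2 was at 11.9 ± 2.52 and 5.3 ± 1.65 CPM in the T arm at 3 and 5 h, and at 19.6 ± 4.53, 20.2 ± 1.19 and 14.4 ± 5.13 CPM in the TCHX arm at 0, 3 and 5 h. On this scale the TCHX means at 3 h were near those at 0 h in both siRNA conditions. CEBPG in pQ was at 7.94 ± 0.983 and 2.7 ± 1.95 CPM in the T arm at 3 and 5 h, and at 17.1 ± 2.24, 16.2 ± 1.07 and 11.2 ± 5.56 CPM in the TCHX arm at 0, 3 and 5 h. CEBPG in mQ was at 29.2 ± 4.75 and 14.2 ± 4.15 CPM in the T arm at 3 and 5 h, and at 60.1 ± 8.51, 66.9 ± 3.6 and 36.6 ± 18.1 CPM in the TCHX arm at 0, 3 and 5 h. The mQ T-arm mean at 5 h includes the replicate 3 library that stands apart: the libraries were at 11, 12.6 and 18.9 CPM (replicates 1, 2 and 3), and replicate 3 was the highest.

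With translation blocked as well, the falls were smaller. In the TCHX arm at 3 h, 0 of the 12 changes were called by edgeR, 1 had an unadjusted p under 0.05 and 1 was called by DESeq2, and the log2 values ran from −0.01 (CEBPD in siCTU2) to −0.72, where 3.04% (siCTU2), 18.3% (siGL2), 36.1% (mQ) and 40.5% (pQ) of all genes were called lower. At 5 h, 9 of the 12 were called lower, against 22.6%, 46.9%, 53.7% and 33.4% of all genes. The exceptions were CEBPG in siCTU2, −0.86 (SE 0.317, adjusted p = 0.0553), CEBPD in pQ, −0.88 (SE 0.415, adjusted p = 0.0999), and CEBPG in pQ, −1.03 (SE 0.4, adjusted p = 0.0556). These counts leaned on replicate 3 and on the scale. Without replicate 3, 5 of the 12 changes at 3 h were called, all falls: CEBPB in siGL2, −0.63 (adjusted p = 0.00461), and in mQ, −0.54 (adjusted p = 0.01), and all 3 mRNAs in pQ, led by CEBPB, −0.89 (adjusted p = 0.00538). At 5 h, 4, 1 and 12 were called without replicate 1, 2 or 3. Over all genes the 5 h calls went from 3277 to 41 in siCTU2 without replicate 1, and from 7401 to 123 in mQ without replicate 2. With TMM scaling the median of all genes moved up by 0.32 to 0.61 at 3 h and 6 of the 12 changes at 3 h turned positive, while 2 of the 12 falls at 5 h were called. Without the libraries that stand apart, CEBPD at 5 h was −0.86 (adjusted p = 0.0579) in siCTU2 and −1.20 (adjusted p = 0.0297) in pQ, and at 3 h in pQ it was −0.83 (adjusted p = 0.0978) where all libraries gave −0.51 (SE 0.41, adjusted p = 0.299).

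The cycloheximide effect is the log2 difference TCHX minus T averaged over 3 and 5 h. It was positive for all 3 mRNAs in all 4 conditions and called in 11 of 12, where 21% (siCTU2), 12.1% (siGL2), 5.12% (mQ) and 12.3% (pQ) of genes were called higher and the medians of all genes were 0.22, 0.05, 0.05 and 0.06. The count was 4 of 12 at 3 h alone, with none of the 3 in pQ, 8 of 12 at 5 h alone, an alternative chosen after the data were seen, and 6 of 12 with the 0 h difference between the arms subtracted. None of the 3 in mQ was called at 5 h alone or with that difference subtracted. For CEBPB it was 1.83 (SE 0.346, adjusted p = 0.00121) in siGL2 and 1.93 (SE 0.261, adjusted p = 2.97e-05) in siCTU2. In the medium experiment CEBPB was at 2.28 (SE 0.359, adjusted p = 0.000186) in pQ and 2.43 (SE 0.313, adjusted p = 0.00122) in mQ. TCHX was higher than T in 6 of 6 pairs of equal replicate and time in every condition, by 1.17- to 35.2-fold. Such pairs match libraries by replicate number for description only, and the share of all genes at 6 of 6 was not counted.

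For CEBPD the effect was 1.99 (SE 0.23, adjusted p = 1.08e-05) in siGL2 and 1.53 (SE 0.208, adjusted p = 3.04e-05) in siCTU2. It was 2.14 (SE 0.322, adjusted p = 0.000121) in pQ and 1.53 (SE 0.332, adjusted p = 0.0159) in mQ, where 5 of 6 pairs were higher in TCHX. For CEBPG it was 1.16 (SE 0.23, adjusted p = 0.00107) in siCTU2, 1.48 (SE 0.299, adjusted p = 0.00205) in pQ and 1.26 (SE 0.247, adjusted p = 0.00987) in mQ. In siGL2 the CEBPG effect of 0.95 (SE 0.346, adjusted p = 0.0918) was not called. Before decay, at 0 h, TCHX against T was called by edgeR in 0 of 12 and had an unadjusted p under 0.05 in 0, where 0% of all genes were called in each condition.

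Single libraries weighed on these calls. Without replicate 1, 2 or 3, the effect was called in 7, 6 and 12 of 12, and it stayed positive throughout. Over all genes, leaving out replicate 3 took the calls from 704 to 3286 in mQ and from 1670 to 2576 in siGL2. CEBPB in siGL2 lost its call without replicate 1, 1.83 (adjusted p = 0.107), and without replicate 2, 1.96 (adjusted p = 0.0534), as did CEBPG in pQ without replicate 2, 1.29 (adjusted p = 0.106). CEBPG in siGL2 was called without replicate 3, 0.86 (adjusted p = 0.00221). In mQ, without the libraries that stand apart they were 3.00 (adjusted p = 5.09e-09) for CEBPB, 2.08 (adjusted p = 4.85e-06) for CEBPD and 1.44 (adjusted p = 0.000172) for CEBPG. In siCTU2 they were 1.90 (adjusted p = 7.25e-05), 1.59 (adjusted p = 4.27e-05) and 1.14 (adjusted p = 0.00261). Leaving out replicate 1 or replicate 2 instead lost all 3 mQ calls, with log2 values of 1.03 to 2.18.

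Among all genes tested, the cycloheximide effect of CEBPB was higher than that of 97.3% in siCTU2, 97.5% in siGL2, 99.6% in mQ and 98.4% in pQ. For CEBPG the same ranks were 90.8%, 91.4%, 96.4% and 95.7%. In siCTU2, siGL2, mQ and pQ, 6 of 10, 6 of 9, 9 of 10 and 7 of 9 tested family members and partners fell over 3 h in the T arm, beside 36%, 28.6%, 55.4% and 55.2% of all genes, with median log2 changes of −1.70, −1.97, −1.68 and −1.77. A positive cycloheximide effect was called in 4 of 10, 6 of 9, 3 of 10 and 6 of 9, beside 21%, 12.1%, 5.12% and 12.3% of all genes, with medians of 1.33, 1.51, 1.29 and 1.89. In siCTU2, JUN fell by a log2 change of −5.10 (SE 0.505, adjusted p = 2.97e-06) and DDIT3 by −2.53 (SE 0.35, adjusted p = 5.48e-05) over 3 h. Of the antagonists and adaptors, 4 of 6, 5 of 6, 5 of 6 and 6 of 6 fell and 5 of 6, 4 of 6, 2 of 6 and 5 of 6 had the effect called, with median effects of 1.99, 1.30, 0.33 and 1.00, against the same shares of all genes. The upstream genes showed it in 3 of 13, 2 of 13, 0 of 13 and 3 of 13, against 21%, 12.1%, 5.12% and 12.3% of all genes, with medians of 0.06, −0.19, −0.05 and −0.05, and the bound genes in 0 of 4, 0 of 4, 0 of 5 and 0 of 5, with medians of 0.14, −0.16, 0.58 and 0.14.

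**Figure D4:**
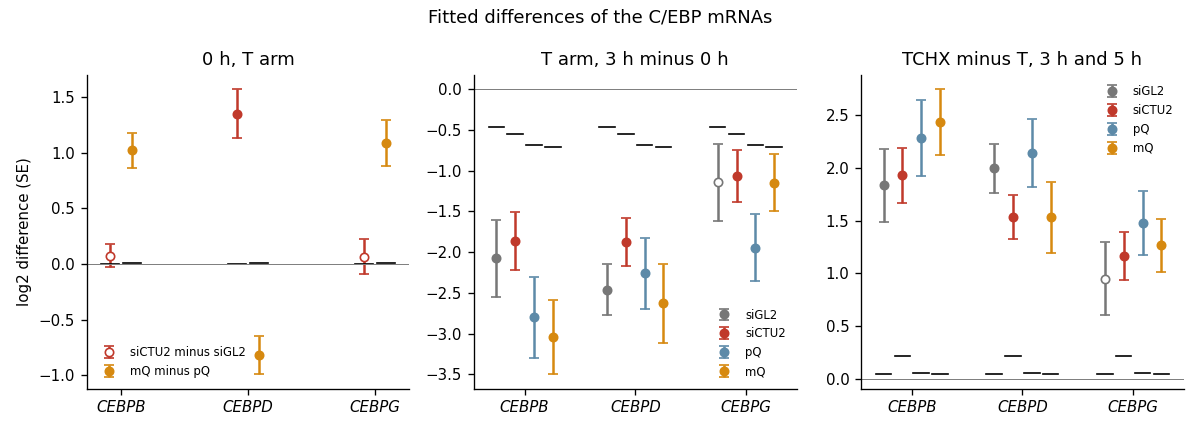
Fitted log2 differences (y axis, whiskers 1 SE) of the 3 mRNAs (x axis) at 0 h between conditions, over 3 h in the T arm, and between the TCHX and T arms. Filled points have an adjusted p under 0.05, and short black lines are the median of all genes. The cycloheximide effects stand between 0.95 and 2.43, above the medians of 0.05 to 0.22.

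The study's index of translation-dependent degradation (TDD) is the level in TCHX minus that in T, each as a share of the 0 h level, so that 0 means that arrest of ribosomes changed nothing. For CEBPB the mean over 3 and 5 h was 0.29 ± 0.0501 in siGL2, 0.412 ± 0.0714 in siCTU2, 0.343 ± 0.0508 in pQ and 0.489 ± 0.142 in mQ (SD, n = 3). For CEBPD it was 0.333 ± 0.0984, 0.389 ± 0.0406, 0.414 ± 0.103 and 0.364 ± 0.25. For CEBPG it was 0.219 ± 0.133, 0.369 ± 0.135, 0.301 ± 0.052 and 0.427 ± 0.245. The median gene was at 0.026, 0.103, 0.033 and 0.025 in these conditions. In mQ the lowest of the 3 values was that of replicate 3, whose T-arm 5 h library stands apart: 0.342 for CEBPB, 0.0829 for CEBPD and 0.154 for CEBPG.

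The design also asks whether CTU2 loss or glutamine removal altered the decay. By edgeR, none of the 3 mRNAs was called for a difference in the 3 h change or in the cycloheximide effect, 0 had an unadjusted p under 0.05 and DESeq2 called 0. For siCTU2 minus siGL2, the differences in the 3 h change were 0.21 (SE 0.606, adjusted p = 1) for CEBPB, 0.59 (SE 0.42, adjusted p = 1) for CEBPD and 0.08 (SE 0.586, adjusted p = 1) for CEBPG. In the cycloheximide effect they were 0.09 (SE 0.454, adjusted p = 0.986), −0.47 (SE 0.311, adjusted p = 0.732) and 0.21 (SE 0.429, adjusted p = 0.958).

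For mQ minus pQ, the differences in the 3 h change were −0.25 (SE 0.675, adjusted p = 1) for CEBPB, −0.37 (SE 0.665, adjusted p = 1) for CEBPD and 0.80 (SE 0.554, adjusted p = 1) for CEBPG. Those in the cycloheximide effect were 0.15 (SE 0.496, adjusted p = 1), −0.61 (SE 0.479, adjusted p = 1) and −0.21 (SE 0.397, adjusted p = 1). For CEBPB, leaving out replicate 3, which holds the T-arm 5 h library that stands apart, gave 1.13 (adjusted p = 0.0347), while leaving out only the libraries that stand apart gave 0.72 (adjusted p = 0.62), and −0.06 (adjusted p = 0.999) for CEBPD and −0.03 (adjusted p = 1) for CEBPG. The SEs of these differences set how far from 0 the true differences may lie, and a missed threshold does not show that the conditions decay alike. Across all genes, 0.379% were called for the cycloheximide effect between siCTU2 and siGL2, 0% between mQ and pQ, and 0% for the 3 h change in either experiment.

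For the TDD index, a linear model fitted to all genes called 0 of the 6 differences, and 0% of all genes in either experiment. For siCTU2 minus siGL2 they were 0.12 (SE 0.0496, adjusted p = 0.608) for CEBPB, 0.06 (SE 0.048, adjusted p = 0.749) for CEBPD and 0.15 (SE 0.128, adjusted p = 0.75) for CEBPG. For mQ minus pQ they were 0.15 (SE 0.0955, adjusted p = 0.999), −0.05 (SE 0.149, adjusted p = 0.999) and 0.13 (SE 0.109, adjusted p = 0.999). At an unadjusted p under 0.05, 1 of the 6 passed, CEBPB in siCTU2, as did 1000 of 12263 genes there and 592 of 12395 for mQ minus pQ.

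Across the 24 group means of log2(CPM + 1), the levels of CEBPB and CEBPG ran together, with Pearson's r of 0.936, while r was 0.72 for CEBPB and CEBPD and 0.512 for CEBPD and CEBPG. The points share libraries, time courses and the fall after triptolide, and r is given as a description. Among 8224 genes, the profile most like CEBPB was MAFF, a small Maf zipper protein (r = 0.971), followed by ZCCHC8, BTG1, ZC3H8 and CHD9. CEBPG was most like XBP1, the zipper factor of the unfolded protein response (r = 0.953), then PYROXD2, MAFF, ZCCHC7 and MIA2. CEBPD was most like MRM2, a mitochondrial rRNA methyltransferase (r = 0.98), then GMEB2, PUS1, MED17 and FAM83D. MAFF was the gene that the lists of CEBPB and CEBPG had in common.

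CEBPD lies on chromosome 8 at 47736913-47738164 on the minus strand (GRCh38), and no other gene was annotated over it. One limit bears on CEBPB: CEBPB-AS1 lies over the same bases on the opposite strand, and whether counting used strand is not stated. It had 0 to 42 counts per library, and its part in the CEBPB count was not tested.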

How the data were processed

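QuantSeq libraries of cytoplasmic RNA from A375 cells were read as raw counts per gene name, as deposited by the authors in 1 table of 44659 names and 72 libraries (5987692 to 15534331 counts each). Per the submitters' processing notes and the methods, reads were handled with fastp 0.20.1, HISAT2 2.2.1 and HTSeq 0.13.5 on GRCh38.p13. The setting for strand is not given in the sources used here. Column titles matched the labels, and 0 columns were left unused.

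The 3 mRNAs and the gene lists were chosen with earlier results of these data known. All 3 are named throughout, and for each the 5 genes with the highest r. From the lists, the rule allowed up to 4 tested genes per comparison with the smallest adjusted p, and every member of the family list. The text names only some of the list genes so allowed. edgeR 4.0.16 (quasi-likelihood, filterByExpr, R 4.3.3) was used with Benjamini-Hochberg adjustment over all genes and a threshold of 0.05. TMM scaling served the 6 libraries of each 0 h comparison. Time courses (18 libraries of a condition, 36 for differences between conditions) were scaled by the median ratio over 197 (siRNA) or 81 (medium) stable genes, chosen after the study's rule. No C/EBP mRNA was among them. A stable gene's share of the library rises after triptolide, so the scale assumes that these genes do not decay. The TDD index was modelled linearly on condition, time and replicate number. Replicate numbers paired the siRNA libraries at 0 h (3 correlations of deviations, 0.104 to 0.304), and a block for them changed no call there. Alternatives were DESeq2 1.42.0, other scalings, no filter, the block, and leaving out each replicate. On simulated counts, of 200 genes changed 2-fold, edgeR recovered 97.5% for mQ against pQ at 0 h (12436 genes), 100% for the cycloheximide effect in pQ (13100 genes) and 93.5% for the 3 h T-arm change in pQ (13093 genes). Of 200 genes shifted by 0.5 in the TDD index, the linear model recovered 1.5% for mQ minus pQ (12272 genes), so most were missed there. The simulated counts had no decay, and their spread between libraries was set alike for every gene and not taken from these data. The recovered shares therefore do not give the power for the 3 mRNAs. In the data, the 2.21-fold fall of CEBPG over 3 h in the siGL2 T arm was not called. The sequences come from GENCODE v44 and RefSeq.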

Additional observations from a re-analysis of the deposited data

How the results depend on the processing

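edgeR's adjusted p is given throughout, and no cause of a change was tested. Of the alternatives to the 0 h differences, the T-arm 3 h changes, the cycloheximide effects and their differences between conditions, 367 kept direction and side of the threshold, 34 lost the call, 9 gained it and 13 turned sign. DESeq2, with its own or the stable-gene size factors, kept every one of these calls. The rises of CEBPB and CEBPG and the fall of CEBPD without glutamine, and the rise of CEBPD in siCTU2, kept their call in every T-arm alternative. In the TCHX arm at 0 h these were no longer called: the mQ against pQ difference at 0 h of CEBPD at −0.39 (adjusted p = 0.44). With TMM scaling these were no longer called: the T-arm 3 h change in siCTU2 of CEBPG at −0.52 (adjusted p = 0.255), and the T-arm 3 h change in mQ of CEBPG at −0.41 (adjusted p = 0.425). With the arms' 0 h difference subtracted these were no longer called: the cycloheximide effect in siCTU2 of CEBPG at 1.14 (adjusted p = 0.0834), the cycloheximide effect in siGL2 of CEBPB at 1.93 (adjusted p = 0.075), and the cycloheximide effect in mQ of CEBPB at 2.00 (adjusted p = 0.478), CEBPD at 1.29 (adjusted p = 0.545), CEBPG at 0.72 (adjusted p = 0.581). At 3 h alone these were no longer called: the cycloheximide effect in siCTU2 of CEBPG at 0.82 (adjusted p = 0.2), the cycloheximide effect in siGL2 of CEBPB at 1.34 (adjusted p = 0.169), the cycloheximide effect in mQ of CEBPD at 2.29 (adjusted p = 0.0504), CEBPG at 1.25 (adjusted p = 0.092), and the cycloheximide effect in pQ of CEBPB at 1.81 (adjusted p = 0.0515), CEBPD at 1.46 (adjusted p = 0.0845), CEBPG at 1.00 (adjusted p = 0.316). At 5 h alone, an alternative chosen after the data were seen, these were no longer called: the cycloheximide effect in mQ of CEBPB at 1.90 (adjusted p = 0.0765), CEBPD at 0.77 (adjusted p = 0.42), CEBPG at 1.27 (adjusted p = 0.132). With the few genes stable at both times as the scale these were newly called: the T-arm 3 h change in siGL2 of CEBPG at −1.58 (adjusted p = 0.02). With no filter on low counts these were newly called: the T-arm 3 h change in siGL2 of CEBPG at −1.15 (adjusted p = 0.0156), and the cycloheximide effect in siGL2 of CEBPG at 0.95 (adjusted p = 0.00697). With a replicate block these were newly called: the T-arm 3 h change in siGL2 of CEBPG at −1.17 (adjusted p = 0.0267), and the cycloheximide effect in siGL2 of CEBPG at 0.96 (adjusted p = 0.0304). With TMM scaling these were newly called: the cycloheximide effect in siGL2 of CEBPG at 0.87 (adjusted p = 0.0433). With TMM scaling the sign turned for the TCHX-arm 3 h change in siCTU2 of CEBPD at 0.32 (adjusted p = 1), CEBPG at 0.0444 (adjusted p = 1), the TCHX-arm 3 h change in mQ of CEBPB at 0.0984 (adjusted p = 1), CEBPD at 0.0239 (adjusted p = 1), CEBPG at 0.16 (adjusted p = 1), the TCHX-arm 3 h change in pQ of CEBPD at 0.0935 (adjusted p = 1), and the difference in the cycloheximide effect siCTU2 minus siGL2 of CEBPB at −0.0119 (adjusted p = 1). With the arms' 0 h difference subtracted the sign turned for the difference in the cycloheximide effect siCTU2 minus siGL2 of CEBPD at 0.0494 (adjusted p = 1), and the difference in the cycloheximide effect mQ minus pQ of CEBPB at −0.59 (adjusted p = 0.938). With the few genes stable at both times as the scale the sign turned for the difference in the cycloheximide effect mQ minus pQ of CEBPG at 0.0998 (adjusted p = 0.917). With each arm over its own 0 h library the sign turned for the difference in the TDD index mQ minus pQ of CEBPB at −0.044 (adjusted p = 0.829), CEBPG at −0.17 (adjusted p = 0.289). Where leaving out 1 replicate at a time changed a call or a sign, the range is given. The siCTU2 against siGL2 difference at 0 h ran from −0.0445 to 0.18 for CEBPG. The T-arm 3 h change in siCTU2 ran from −2.04 to −1.68 for CEBPB, from −1.34 to −0.82 for CEBPG. The TCHX-arm 3 h change in siCTU2 ran from −0.0934 to 0.0913 for CEBPD. The T-arm 3 h change in siGL2 ran from −2.24 to −1.99 for CEBPB, from −1.32 to −1.06 for CEBPG. The cycloheximide effect in siGL2 ran from 1.74 to 1.96 for CEBPB, from 0.84 to 1.15 for CEBPG. The T-arm 3 h change in mQ ran from −1.29 to −1.01 for CEBPG. The cycloheximide effect in mQ ran from 2.17 to 3.17 for CEBPB, from 1.11 to 2.28 for CEBPD, from 1.03 to 1.68 for CEBPG. The cycloheximide effect in pQ ran from 1.29 to 1.80 for CEBPG. The difference in the T-arm 3 h change siCTU2 minus siGL2 ran from −0.0452 to 0.56 for CEBPB, from −0.28 to 0.50 for CEBPG. The difference in the cycloheximide effect siCTU2 minus siGL2 ran from −0.0841 to 0.42 for CEBPB, from −0.0854 to 0.50 for CEBPG. The difference in the T-arm 3 h change mQ minus pQ ran from −0.48 to 0.11 for CEBPB. The difference in the cycloheximide effect mQ minus pQ ran from −0.92 to 1.13 for CEBPB, from −1.27 to 0.46 for CEBPD, from −0.77 to 0.21 for CEBPG. The difference in the TDD index mQ minus pQ ran from −0.20 to 0.14 for CEBPD. In the main edgeR fits the replicate numbers were not taken to pair the libraries of the time courses. The reason was that 159 of 198 pairs of siRNA groups and 151 of 198 pairs of medium groups, not all, had a correlation over 0.1. The percents of the 0 h level and the TDD index do match libraries by replicate number. Besides the calls above, the block gave a call to the TCHX-arm 5 h change in pQ of CEBPD, −0.82 (adjusted p = 0.034), and CEBPG, −1.11 (adjusted p = 0.0096). The percentages of all genes called moved with the setting too. T-arm 3 h calls of 7599 (mQ), 7510 (pQ) and 3904 (siGL2) genes became 981, 1224 and 1259 with TMM scaling, and that of 5069 (siCTU2) became 1182 without replicate 1. Cycloheximide calls of 1701 (pQ), 2881 (siCTU2) and 1670 (siGL2) became 380, 590 and 461 at 3 h alone, and that of 704 (mQ) became 1 with the 0 h difference subtracted and 3286 without replicate 3. The mQ against pQ calls at 0 h were 3071 in the T arm and 810 in the TCHX arm. Depth limits the T arm at 5 h, where CEBPB and CEBPD came down to 4 counts in a pQ library.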
